A study of Mus musculus with 3 samples.

Results

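The genes described here encode heterotrimeric G protein subunits, the RGS proteins that switch them off, and the enzymes that make, break down and answer to cyclic AMP. They were measured in Ret-EGFP cells sorted from dorsal root ganglia of mouse embryos; these ganglia hold the cell bodies of sensory neurons. Members were taken by symbol: protein-coding genes beginning with Gnai, Gnao, Gnaq, Gna1, Gnal, Gnat, Gnaz, Gnb followed by 1 to 5 (Gnb1l left out), Gng, Rgs or Adcy followed by a digit, Pde1, Pde2, Pde4, Pde7, Pde8, Pde10 or Prka. The rule found 93 genes among 41388 listed genes, of which 21474 are protein coding. By symbol it also took 7 genes of the AMP-activated kinase, an energy sensor that AMP and ATP control, and Pde12 and Pde4dip, which are not cyclic nucleotide phosphodiesterases.

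The study had 1 group and no control population, so no conditions were compared. Embryos of strain C57BL/6 at embryonic day 14.5 carried a Ret-EGFP reporter, written Tg(Ret-EGFP)SJ in the genotype label and called a heterozygous knock-in at Ret in the series description. Fluorescent cells of ganglia T11 to S1 were sorted, and pools of embryos gave 3 libraries, which the labels call A, B and D. Where 3 values follow each other below, they stand in that order. Library A held 100 ganglia of 5 embryos, library B 100 of 6 and library D 80 of 4, each from males and females. Library totals ran from 20181558 to 29061086 counts, and the 93 genes took between 1.23% and 1.37% of them. All 10 sensory neuron markers examined passed 1 TPM (transcript count scaled to gene length and library), with a median of 719 TPM. The summed level of 9 glial markers was 564, 887 and 950 TPM. Sums of 8 mesenchyme markers were 17.4, 67.9 and 18.4 TPM, of 8 macrophage and other leukocyte markers 25.2, 14.7 and 10.6, of 7 endothelial markers 12.96, 10.7 and 7.31, and of 7 erythroid markers 84.9, 74.8 and 304 TPM.

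A receptor that binds its ligand opens a G protein, made of an alpha subunit and a joined beta and gamma pair, so that alpha exchanges GDP for GTP. The class of alpha sets the target: Gs and Golf raise adenylyl cyclase activity, Gi, Go and Gz lower it, and Gq and its relatives activate phospholipase C beta. RGS proteins speed the hydrolysis of GTP, phosphodiesterases destroy cyclic AMP, and protein kinase A (PKA) is released from its regulatory subunits when they bind it. In sensory neurons this system sets channel opening, transmitter release and the sensitivity of nociceptors.

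Classes of alpha and gamma subunit differ in part in the last codons of their genes, and these are shown because the levels below are ordered by class. The last 10 codons before the stop are given 5′ to 3′ from GENCODE M21 transcripts (GRCm38), with the fourth codon from the end in capitals. In Gi and Go genes it is a cysteine codon, whose residue pertussis toxin modifies; in Gz, Gq and G12/13 genes it is not. It was a cysteine codon in 7 of the 14 alpha genes read. These were Gnai1, Gnai2, Gnai3, Gnao1 and the transducin genes Gnat1, Gnat2 and Gnat3. Gnal was not read. The codon does not separate every class, since it was ATC in both Gnaz and Gna12.
Gnai3: aaaaacaacttaaaggaaTGTgggctttat
Gnai2: aagaacaacctgaaggacTGTggcctcttc
Gnao1: gccaacaatctccggggcTGCggcttgtac
Gnaz: cagaacaatctcaagtacATCggcctttgc
Gnaq: cagctgaacctgaaggagTACaatctggtc
Gna11: cagctgaacctgaaggagTACaacctggtg
Gna12: caggagaacctgaaagacATCatgctgcag
In gamma genes the same position holds the cysteine that carries the lipid anchor, and it was a cysteine codon in 12 of 12. A leucine at the end goes with a geranylgeranyl anchor and a serine with a farnesyl anchor. The last codon was a leucine codon in 9 genes and a serine codon in 3 (Gng11, Gngt1 and Gngt2).
Gng3: cgggagaagaagttcttcTGTgcgctcctc
Gng2: cgggagaagaagttcttcTGCgccatcctt
Gng8: cgcgacaagcgactctttTGCaccctgctc
Gng11: ttcaaagaaaagggcagcTGTgtcatttca
Of these 30 bases, 2 differ between Gnaq and Gna11, 4 between Gng3 and Gng2, and 15 between Gnao1 and Gnai3.

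Of the 93 genes, 64 reached a mean of 1 TPM, against 55.3% of all protein-coding genes. Their median was 9.20 TPM, against 2.05 TPM over all protein-coding genes. A mean of 10 TPM was reached by 45, of 100 TPM by 12 and of 1000 TPM by 3: Gng3, Gnb1 and Rgs4. Prkag3, a muscle subunit of the AMP-activated kinase, and Gngt1, the gamma subunit of rods, had 0 counts throughout. Taking 3 counts as the limit, levels of up to 0.149, 0.147 and 0.103 CPM, the count scaled to the library total, remain possible. Values below are means over 3 libraries ± SD (n = 3) unless a library is named. By library, the median TPM over all protein-coding genes was 2.13, 2.15 and 1.59, lowest in D. Some genes, such as Gna13, were lowest in D as TPM but not as normalised CPM. In bulk RNA, fewer cells that express a gene and less of its RNA per cell cannot be told apart.

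Among the alpha subunits of the inhibitory class, Gnai3 was highest in mean TPM, followed by the neuronal Go gene Gnao1, whereas as CPM Gnao1 was the higher. Gnai3 (chromosome 3, 108107280 to 108146146, GRCm38.p2) stood at 284, 227 and 98.7 TPM. Gnao1 (chromosome 8, 93809966 to 93969388) stood at 92.4, 124 and 103 TPM. Gnai3 was thus far above Gnao1 in A and B, while in D the 2 genes lay close together. Gnai2 reached 50.5, 70.4 and 73.0 TPM, Gnai1 25.0 ± 3.82 TPM and Gnaz, whose product resists pertussis toxin, 23.8 ± 6.65 TPM. Within libraries Gnao1 exceeded Gnai2 1.66-fold (log2 ratio 0.73 ± 0.20), and Gnai2 lay below Gnai3 by a log2 ratio of -1.54 ± 1.04, each with the same sign in 3 of 3 libraries. The second ratio was uneven, at -2.49, -1.69 and -0.44. It was -1.06 without A and -2.09 without D, and -2.34 with exon lengths of GENCODE M21, in which Gnai2 is longer. The transducin genes of photoreceptor and taste cells were close to absent: Gnat3, Gnat2 and Gnat1 averaged 0.333, 0.153 and 0.0190 TPM, with at most 8 counts of any in a library.

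Gnaq led the Gq class. Its mean of 204 TPM was close to that of Gnai3, but Gnai3 was the higher in A and B and Gnaq in D. Gnaq (chromosome 19, 16132831 to 16387463) stood at 175, 214 and 224 TPM, and Gna11 (chromosome 10, 81528724 to 81545190) at 104, 107 and 58.2 TPM. Gnaq was above Gna11 in every library, most of all in D. The ratio was 2.34-fold (log2 1.23 ± 0.63), or a log2 ratio of 0.87 without D. Gna14 reached 2.30 ± 0.907 TPM, and Gna15, a gene of blood cells, 0.309 TPM in A, no counts in B and 0.145 TPM in D.

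Gna12 and Gna13, the genes of the G12/13 class, were lower. Gna12 stood at 15.7, 26.3 and 23.0 TPM and Gna13 at 12.1, 11.8 and 11.1 TPM. Gna12 was above Gna13 in each library (log2 Gna13/Gna12 -0.86 ± 0.42), but without length correction, as CPM, the log2 ratio was 0.048. Gnal, which encodes Golf, reached 31.8, 36.6 and 31.8 TPM. Gs itself is encoded by Gnas, which the rule leaves out. It had 23 to 42 counts per library, a mean of 0.346 TPM. Of its 11186 exon bases 2457 lie in exons of other listed genes, among them 1469 in the antisense gene Gm20721. The part of these shared bases in its counts was not tested, and the handling of shared reads was not given. The value is therefore not taken as the level of Gs RNA.

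A single beta gene and a single gamma gene held most of their families' RNA. Gnb1 (chromosome 4, 155491361 to 155559269) stood at 2177, 2902 and 2471 TPM, rank 32 among protein-coding genes. Gng3 (chromosome 19, 8836929 to 8839246), a neuronal gamma subunit, stood at 2488, 2277 and 2827 TPM, rank 31. In normalised CPM the highest library exceeded the lowest 1.44-fold for Gnb1 and 1.56-fold for Gng3, against a median of 1.60-fold over all genes tested. The TPM ranges of the 2 genes overlapped. Gnb1 made up 89.8 ± 2.94% of beta TPM and Gng3 83.7 ± 1.17% of gamma TPM. Of the exon bases of Gng3, 23.4% lie in exons of Bscl2 on the opposite strand, which stood at 71.5 ± 0.416 TPM, so reads in these bases cannot be told apart unless strand was used.

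**Figure D1:**
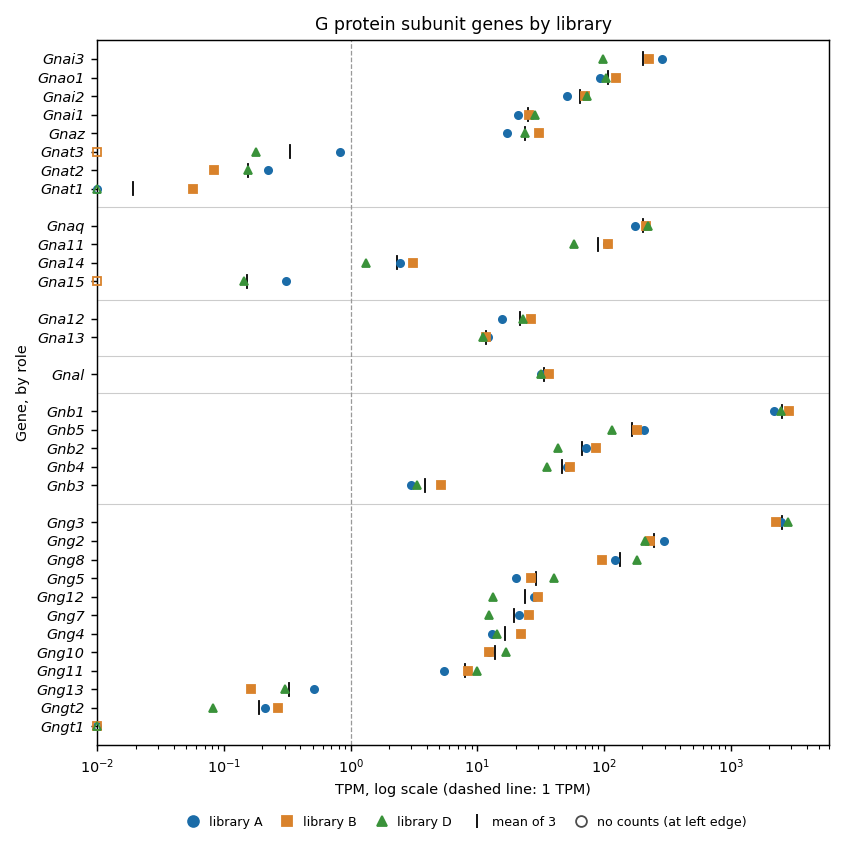
TPM of each alpha, beta and gamma subunit gene (log axis) in libraries A, B and D, with the mean of 3 as a vertical bar and genes grouped by role. Gnb1 and Gng3 lie above 2000 TPM in every library, all 3 transducin alpha genes lie below 1 TPM, and Gngt1 has no counts.

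The other beta genes followed in the order Gnb5, Gnb2, Gnb4 and Gnb3. Gnb5, the beta subunit that pairs with RGS proteins of the R7 group, reached 206, 181 and 115 TPM. Its deposited length of 1188 bases is 0.381 of the exon length in GENCODE M21, so its TPM depends on which exons are counted. The same holds, with deposited lengths more than 1.5-fold shorter, for Gnao1, Gnai2, Gnal, Gng8, Rgs7, Rgs14, Adcy8, Pde1b, Pde1c, Prkacb and Prkar2a. Gnb2 reached 72.4, 86.1 and 43.1 TPM, Gnb4 46.3 ± 9.83 TPM and Gnb3 3.84 ± 1.15 TPM. Gnb1 exceeded Gnb2 38.7-fold (log2 5.28 ± 0.50).

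Among gamma genes Gng2 and Gng8 came next. Gng2, a broadly expressed subunit, stood at 297, 230 and 209 TPM, and Gng8, known from olfactory and vomeronasal neurons, at 123, 96.5 and 183 TPM. Gng3 exceeded Gng2 10.4-fold (log2 3.38 ± 0.35), and Gng2 exceeded Gng4, another neuronal gamma gene, 15.2-fold (log2 3.92 ± 0.58). Gng5 was lowest in A, at 20.0 TPM, and highest in D, at 40.3 TPM, with 26.4 in B. Gng12, Gng7, Gng4 and Gng10 lay between 13.8 and 23.7 TPM on average. Gng5 was above Gng10 2.03-fold (log2 1.02 ± 0.29), but 72.0% of the exon bases of Gng10 are shared with Gm20503 on the same strand, which was listed at 0. Of the 3 genes with a final serine codon, Gng11 was the only one to reach 1 TPM, at 5.40, 8.42 and 9.92 TPM, and the 3 together summed to 8.10 ± 2.26 TPM. Gng13, a gamma subunit of taste cells and retina, stayed at 0.325 ± 0.176 TPM.

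Summed by family, beta reached 2801 ± 378 TPM, gamma 3021 ± 299 TPM and alpha, with Gnas left out, 787 ± 102 TPM. The gamma sum was 1.20, 0.845 and 1.25 times the beta sum, so their order differed between libraries. The beta sum was 3.58 ± 0.429 times this alpha sum.

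RGS genes were led by Rgs4 (chromosome 1, 169741477 to 169747642), which acts on Gi, Go and Gq. It stood at 1150, 1122 and 888 TPM, and made up 72.7 ± 3.75% of the TPM of the 21 RGS genes. In normalised CPM its highest library exceeded the lowest 1.02-fold. Rgs10 followed at 158, 186 and 223 TPM and Rgs19, also called GAIP, at 77.5, 97.6 and 85.4 TPM. Neither range overlapped that of Rgs4, and the lowest Rgs10 value lay above the highest Rgs19 value. Rgs10 is also known from macrophages and microglia. It was highest in D, where the macrophage marker sum was lowest, as was the median TPM of all protein-coding genes. Its levels had the same order over the libraries as the glial marker sum, which S100b and Fabp7 mostly made up. The median of the 9 glial markers had another order, at 18.7, 21.7 and 15.5 TPM. Of the 8 glial markers tested for variation between libraries, 5 were highest in B and 2 in D. Rgs10 is also shorter than 2000 bases, a class treated below. The part of glia and of length in its level was not tested.

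Rgs11, Rgs7, Rgs6 and Rgs9 form the R7 group, whose products are stable only with Gnb5. Rgs11 was uneven, at 69.0, 30.0 and 32.3 TPM, with A the high library. Arhgdig overlaps its locus on the opposite strand and stood at 145 ± 81.2 TPM, but only 138 of the 4206 exon bases of Rgs11 (3.28%) are shared. Rgs7 reached 21.4, 19.4 and 14.4 TPM, while Rgs9 and Rgs6 stayed at 0.746 ± 0.104 and 0.740 ± 0.274 TPM. Rgs7 lay below its partner Gnb5 by a log2 ratio of -3.16 ± 0.15 (8.95-fold), or -3.86 with M21 exon lengths, of which the deposited length of Rgs7 covers 0.236. Rgs7bp, the membrane anchor of these complexes, stood at 66.2, 42.7 and 61.9 TPM, and the retinal anchor gene Rgs9bp at 0.0778 ± 0.0386 TPM.

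Rgs2, a regulator of Gq and an early response gene, reached 19.9, 19.6 and 28.1 TPM, 47.2-fold below Rgs4 (log2 Rgs4/Rgs2 5.56 ± 0.50). Rgs17 and Rgs20, paired here as 2 of the genes of the RZ group, which act on Gi and Gz, stood at 9.20 ± 2.68 and 5.06 ± 0.712 TPM. Their log2 ratio was 0.83 ± 0.60, at 1.17, 0.13 and 1.18. Rgs12, Rgs3 and Rgs14 completed the 11 RGS genes that reached 1 TPM, at 7.98, 4.01 and 1.48 TPM. Among the 10 below it, Rgs1, Rgs13 and Rgs18, known from leukocytes, had at most 7 counts in a library. Rgs5, a marker of pericytes, stood at 0.319, 0.607 and 1.05 TPM. The pericyte and smooth muscle list, in which 2 of 8 genes reached 1 TPM and none lacked counts, summed to 9.08, 11.5 and 8.45 TPM. This sum was lowest in D, where Rgs5 was highest. The median over all protein-coding genes was also lowest in D, at 2.13, 2.15 and 1.59 TPM. The order of this sum is thus no measure of pericyte content. Of the 3 genes of the list tested for variation between libraries, 2 were lowest in D and 1, Tagln, was highest there. The part of pericytes in the level of Rgs5 was not tested.

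**Figure D2:**
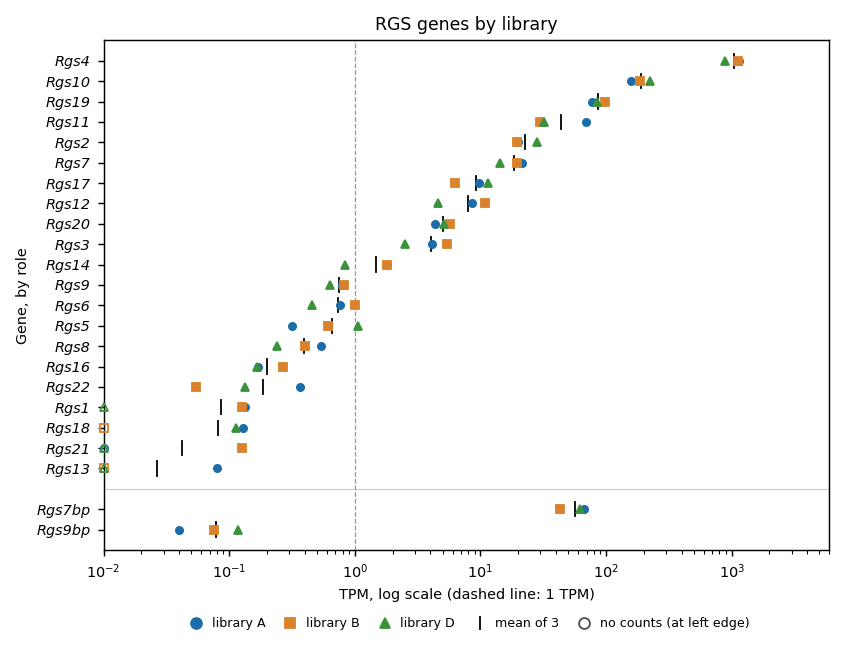
TPM of 21 RGS genes and 2 genes of RGS-binding proteins (log axis) in libraries A, B and D, with the mean of 3 as a vertical bar. Rgs4 stands apart from the rest, and 10 of the 21 RGS means lie below 1 TPM.

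Adenylyl cyclase genes were low beside the G proteins that control them. Adcy5, which calcium inhibits, stood at 9.05, 13.6 and 9.75 TPM, and Adcy1, which calcium and calmodulin stimulate, at 7.60, 12.3 and 8.44 TPM. Both were highest in B, and their ranges overlapped. Adcy2, Adcy9, Adcy6 and Adcy8 followed at 4.37 ± 0.950, 3.71 ± 0.863, 1.48 ± 0.598 and 1.25 ± 0.419 TPM. Adcy1 exceeded Adcy8, the other calcium-stimulated cyclase of neurons, 7.74-fold (log2 2.95 ± 0.47, or 3.65 with M21 exon lengths). Adcy6 lay below its close relative Adcy5 by a log2 ratio of -2.91 ± 0.77. Adcy3, Adcy7, Adcy4 and the soluble cyclase gene Adcy10 stayed below 1 TPM. Adcy3 had 34, 65 and 9 counts, and shares 22.1% of its exon bases with Cenpo. All 10 cyclase genes summed to 32.2 ± 7.19 TPM.

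Among the 13 phosphodiesterase genes that the rule took, Pde1b was highest on average and in A and B, and Pde4b in D. Pde1b, stimulated by calcium and calmodulin, stood at 25.6, 19.4 and 6.57 TPM. With M21 exon lengths, Pde4b led in its place. The cyclic AMP-specific genes Pde4b and Pde4d stood at 15.3, 11.8 and 8.42 TPM and at 8.79, 7.50 and 5.24 TPM. All 3 genes were highest in A and lowest in D. Pde4d lay below Pde4b in every library, with a steady log2 ratio of -0.71 ± 0.08. The pseudogene Rps3a3 lies within the Pde4d locus, but Pde4d shares no exon bases with any listed gene. Pde7a, Pde4a, Pde10a and Pde1c reached 5.25, 4.76, 2.19 and 1.86 TPM, and Pde11a, Pde8a, Pde1a, Pde8b, Pde7b and Pde4c stayed below 1 TPM. The log2 ratio of Pde1a to Pde1c was -1.17 ± 0.56, and -0.53 with M21 exon lengths, under which it no longer had the same sign in 3 of 3 libraries (exact sign-flip p = 0.5). These 13 genes, among which Pde2a is not counted, summed to 53.4 ± 17.2 TPM.

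No listed gene carried the symbol Pde2a, which encodes the phosphodiesterase stimulated by cyclic GMP. The identifier ENSMUSG00000030653 (chromosome 7, 101421691 to 101512829) is named Gm45837 in GENCODE M21 and starts at the base where that annotation places Pde2a. It stood at 158, 191 and 57.2 TPM, each above the sum of the 13 phosphodiesterase genes. No other listed gene shares its 4220 deposited exon bases, so its counts come from a single deposited model. How they divide between the 2 genes of GENCODE M21 cannot be told. The rule did not take its symbol, so it was not counted as a member.

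PKA regulatory subunits outnumbered the catalytic ones in RNA. Prkar1a (chromosome 11, 109649405 to 109669656), the widely expressed type I subunit, stood at 772, 728 and 359 TPM. Prkar1b, its neuronal relative, stood at 341, 319 and 229 TPM. Both were lowest in D as TPM, and in each library Prkar1a was the higher (2.01-fold, log2 1.01 ± 0.31). In normalised CPM the highest library exceeded the lowest 1.70-fold for Prkar1a and 1.18-fold for Prkar1b. The type II genes Prkar2a and Prkar2b reached 33.5 ± 1.68 and 10.7 ± 1.83 TPM, with a log2 Prkar2b/Prkar2a ratio of -1.67 ± 0.21, or -1.01 with M21 exon lengths. The catalytic genes were close in level: Prkaca stood at 51.5, 95.5 and 75.1 TPM and Prkacb at 90.3, 66.7 and 38.5 TPM. Prkacb was the higher in A and Prkaca in B and D, and the log2 ratio of 0.22 ± 0.92 lay within 1 SD of equality (exact sign-flip p = 0.75). It was -1.03 as CPM and -0.15 without D. Regulatory genes summed to 8.14, 6.75 and 5.57 times the catalytic genes.

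The AMP-activated kinase had 6 of 7 genes above 10 TPM. Its gamma subunit genes Prkag1 and Prkag2 were close, at 54.5 ± 6.65 and 52.5 ± 16.1 TPM, and the beta gene Prkab2 32.9 ± 11.8 TPM. Prkag1 shares 44.6% of its exon bases with the antisense gene B130046B21Rik. The catalytic gene Prkaa1 stood at 31.4, 23.4 and 11.7 TPM, above Prkaa2 at 17.3, 13.5 and 8.83 TPM in each library (log2 0.69 ± 0.25), though as CPM the log2 ratio was -0.088. Prkab1 reached 13.1 ± 3.45 TPM. Pde4dip, a centrosomal and Golgi anchor, stood at 21.4 ± 6.41 TPM, and Pde12, a mitochondrial RNA nuclease gene that overlaps the far higher Arf4, at 5.74 ± 2.52 TPM. Of the 7725 exon bases of Pde12, 527 lie in exons of Arf4.

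**Figure D3:**
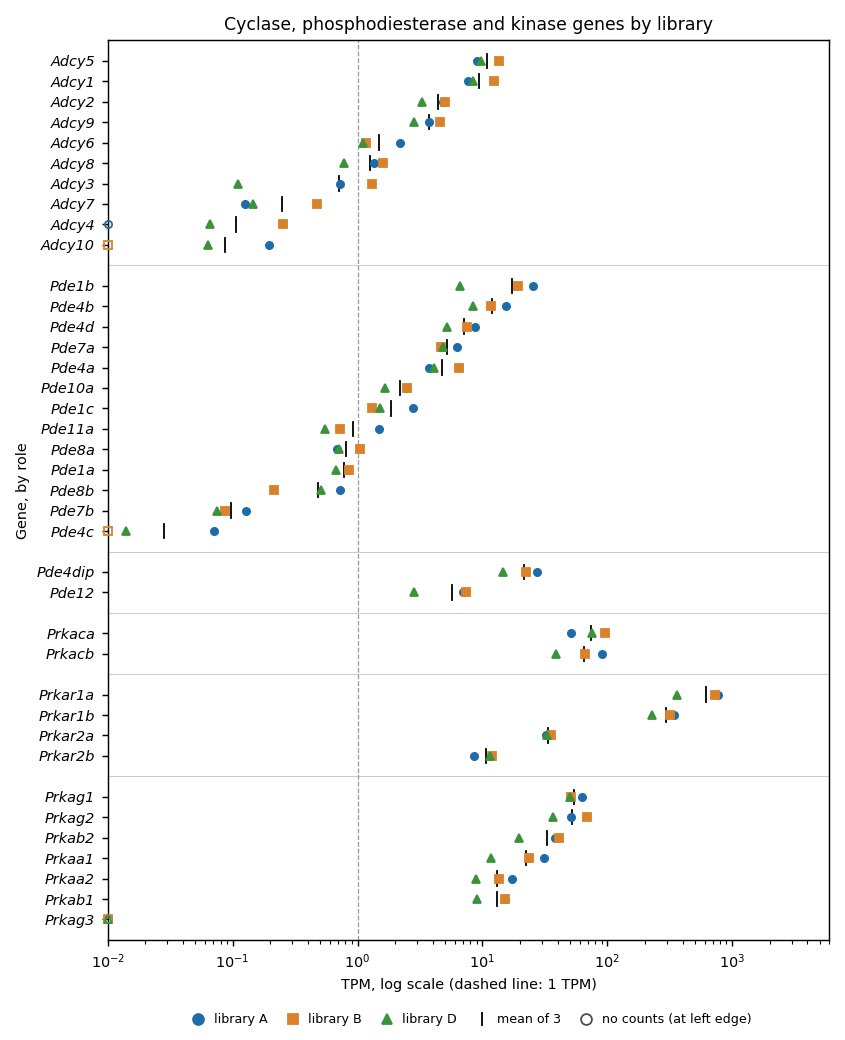
TPM of adenylyl cyclase, phosphodiesterase, PKA and AMP-activated kinase genes, with Pde4dip and Pde12 between them (log axis), in libraries A, B and D, with the mean of 3 as a vertical bar. Prkar1a and Prkar1b lie above 200 TPM in every library, whereas every cyclase lies below 14 TPM.

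Of 21 gene pairs listed for comparison, 19 could be computed. Adcy3 had under 10 counts in a library, and Pde2a was not listed. In 18 of the 19 the ratio had the same sign in 3 of 3 libraries, and each of these had p = 0.25 in an exact two-sided sign-flip test (0.264 after Benjamini-Hochberg adjustment over 19). A p of 0.25 is the lowest this test can reach with 3 values. No pair could therefore pass 0.05. The exception was Prkaca and Prkacb.

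**Figure D4:**
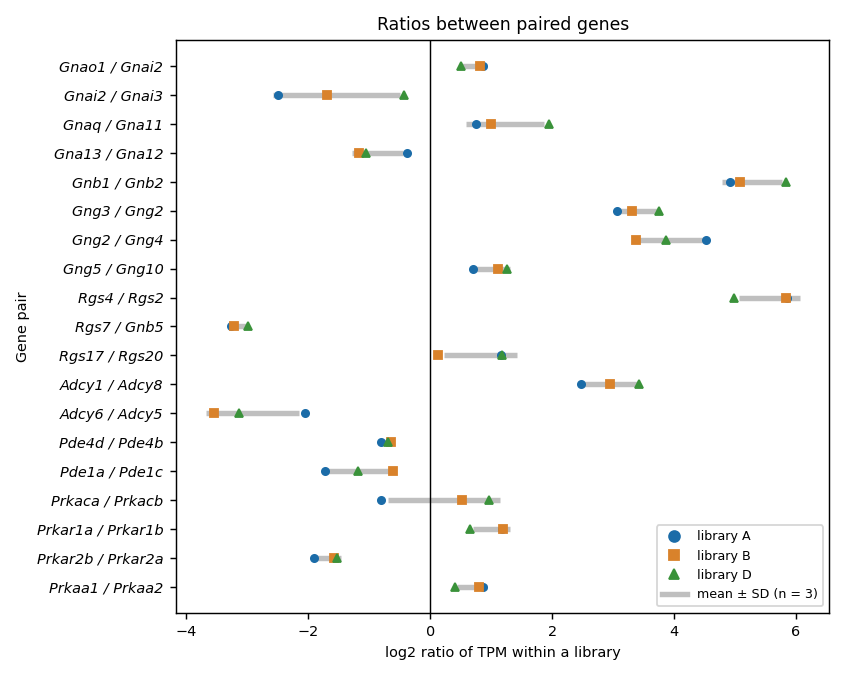
Within-library log2 ratios of TPM for 19 gene pairs, with 1 symbol per library and a grey bar for the mean ± SD (n = 3). All pairs lie on 1 side of 0 in the 3 libraries except Prkaca and Prkacb, and Gnai2 to Gnai3 is the most spread.

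Other genes of the pathway, from lists on which the rule did not draw, were mostly present. Of 10 G protein chaperones and GoLoco regulators 9 reached 1 TPM (median 11.4 TPM, against 2.05 TPM over all protein-coding genes), led by the alpha chaperone Ric8a (130, 130 and 59.4 TPM) and Pdcl (100, 62.7 and 56.6 TPM). All 13 PKA inhibitors and anchors did (median 16.3 TPM), led by the inhibitor Pkia (281, 231 and 93.6 TPM) and the anchor Akap12 (150, 141 and 86.8 TPM). Among receptor kinases and arrestins, 6 of 7 reached it (median 11.05 TPM), with Arrb2 at 27.7 ± 13.6 TPM and Grk2 at 21.04 ± 6.83 TPM. Phospholipase C beta genes, the targets of Gq, were lower, with 3 of 4 at 1 TPM (median 3.70 TPM), Plcb3 at 10.9 ± 5.99 TPM and Plcb4 at 5.07 ± 1.34 TPM. Of the other cyclic AMP targets 10 of 12 reached 1 TPM (median 4.33 TPM), led by the exchange factor gene Rapgef4 (39.8 ± 16.7 TPM) and the channel gene Hcn3 (22.4 ± 9.66 TPM). Guanylyl cyclase and cyclic GMP kinase genes had 6 of 8 at 1 TPM (median 1.49 TPM), with Prkg1 at 15.9 ± 6.47 TPM and the natriuretic peptide receptor gene Npr2 at 12.0 ± 2.66 TPM. Of 10 genes with a Pde symbol outside the rule, 3 reached 1 TPM (median 0.226 TPM). Whether each of the 10 encodes an active enzyme was not assessed. The 3 were Pde6d (40.7 ± 16.4 TPM), Pde9a (10.0 ± 2.22 TPM) and Pde3b (3.29 ± 0.371 TPM), and Pde6c had no counts.

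Differences between the libraries were tested with edgeR across all genes that passed its filter on low counts. Of the 93 genes 72 entered the test and 0 were called as more variable than genes at a similar level, against 0.177% of 13530 genes tested. The lowest adjusted p, that of Pde1b, was 0.761 (edgeR goodness-of-fit, Benjamini-Hochberg adjusted). An unadjusted edgeR p below 0.05 was found for 2 of them, Pde1b (0.0374) and Rgs5 (0.0472), against 6.11% of all genes tested, and DESeq2 marked 0 as dispersion outliers. In simulated counts, the share of changed genes recovered was 4.48% at 2-fold (67 genes), 31.3% at 4-fold (67 genes) and 86.4% at 8-fold (66 genes). The simulation used a single dispersion for all genes and changed only genes of higher level. Among such genes, differences of the size seen here were thus mostly not detectable. These shares do not cover members of low level, such as Pde8b and Rgs5. The normalised range over the libraries passed 2-fold for 13 of the 72, or 18.1%, against 25.8% of all genes tested. Of the 13 PKA inhibitors and anchors, all of which entered the test, 1 passed: the anchor gene Akap9, low in B (2233, 413 and 2902 counts, adjusted p = 0.036).

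The 10 largest differences between a library and the mean of the other 2, on the log2 CPM scale, were those of Pde8b, Rgs5, Pde1b, Gng5, Gng8, Gnai3, Pde11a, Pde12, Rgs11 and Rgs17. Library D held 6 of them: Rgs5 (1.48), Gng5 (1.14) and Gng8 (1.08) were higher there, and Pde1b (-1.42), Gnai3 (-1.03) and Pde12 (-0.999) were lower. Library B held Pde8b (-1.50, from 10 counts against 32 and 39) and Rgs17 (-0.91), and library A Pde11a (1.03) and Rgs11 (0.97). None of these 10 passed the test.

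Library D was the lowest for 33 of the 72 genes, or 45.8%, against 38.8% of all genes tested, and the highest for 23, or 31.9%, against 37% of all. Gene length moved with this split. Of the 8 tested members shorter than 2000 bases 6 were highest in D (75.0%), as were 67.6% of the 2671 tested genes of that length, while among the other 64 members D was highest for 17 (26.6%), against 29.5% of the longer genes. Gamma genes, which include 4 of the 8, had a median difference of 0.58 in D, and 0.24 after the trend with gene length was removed. Of 11 tested phosphodiesterase genes 0 were highest in D and 5 were lowest there (45.5%), with a median difference of -0.0033. Of the 6 tested genes of the AMP-activated kinase, 1 was highest in D and 5 were lowest there (83.3%). Their median difference in D was -0.42, and -0.29 after the trend with gene length was removed. For Gng8 the difference in D moved from 1.08 to 0.48, whereas for Gng5 it was 1.16, for Pde1b -1.36 and for Gnai3 -0.92 after removal.

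**Figure D5:**
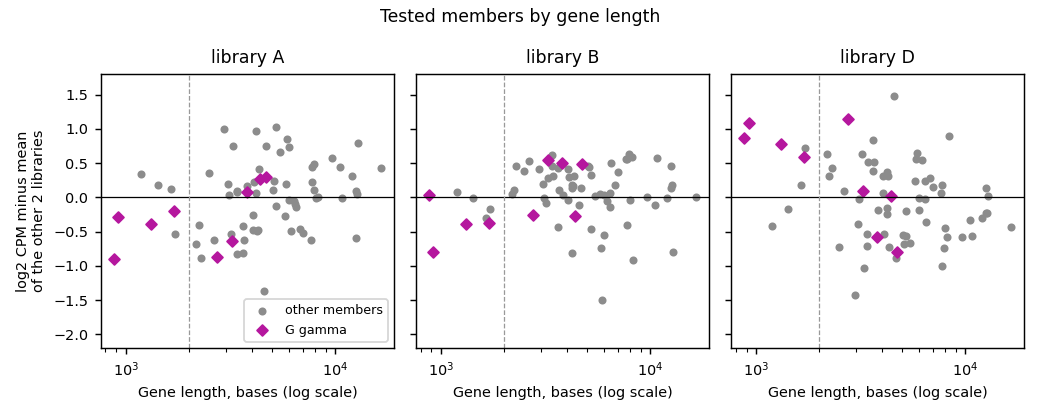
Difference of each tested member (72 genes) in log2 CPM from the mean of the other 2 libraries, against deposited gene length in bases (log axis), for libraries A, B and D, with gamma genes as diamonds and 2000 bases as a dashed line. In D the short genes lie mostly above 0.

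Promoters of the family were searched for the cyclic AMP response element, because PKA acts on transcription through factors that bind it. RefSeq promoters (GRCm38.p6), windows around each gene start, were found for 75 of the 93 genes. The full element TGACGTCA, which reads the same on both strands, lay in a promoter of 1 of them, Prkar1a, or 1.33%, against 2.03% of all 27025 genes in the table. The shorter TGACG, which the full element contains, lay on either strand in 25 of the 75 (33.3%), against 23.0% of all genes. Members have more promoter entries per gene, and counted by entry the shares were 22.3% of 121 against 20.8% of 32851. The element of Prkar1a, in capitals, begins 49 bases before 1 annotated start and 38 bases after another, at chr11:109650889-109650918 on the plus strand.
Prkar1a: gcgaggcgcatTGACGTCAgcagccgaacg
These matches describe letters in a window, and no binding was measured.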

How the data were processed

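RNA of 3 libraries was measured by sequencing after amplification of 10 ng of total RNA with the SMARTer Ultra Low Input kit and 12 PCR cycles, per the labels' protocols. Gene lengths and whole-number counts were deposited by the authors for each Ensembl gene, and Subread, featureCounts 1.4.5 and build GRCm38.p2 are named in the submitters' processing notes. The use of strand and the handling of shared reads were not given in the sources used here. The deposited CPM equals the count scaled to the library total, and the deposited RPKM is that CPM per kilobase. Both were recomputed from counts and not used otherwise.

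Symbols came from GENCODE M21 (40340 of 41388 identifiers matched). TPM was computed from counts and deposited lengths over all genes. A count of 0 was read as allowing 3 counts, and floors cover counting error only, since no molecular identifiers are described. Each library is a separate pool of embryos. The edgeR p asks whether a gene varied more between pools than genes at a similar level. The sign-flip p asks whether a ratio differed from 0. With 1 library per pool, differences between embryos cannot be told apart from those of sorting, amplification or depth. Variation between libraries was assessed in R 4.3.3 with edgeR 4.0.16 (filterByExpr, TMM, intercept-only fit, trended dispersion, deviance goodness-of-fit, adjusted over all genes at 0.05), because 1 group allows no quasi-likelihood test between groups. It was tested on simulated data. Pairs used an exact sign-flip permutation test. Alternatives included DESeq2 1.42.0, other scalings and filters, and leaving out each library. Other work used Python 3.11.15, numpy 2.4.6, pandas 2.3.3, scipy 1.17.1 and matplotlib 3.10.9.

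The members, lists and pairs were chosen with earlier results of these data known. Genes were named by this rule: in each role up to 5 of highest mean TPM, those with no counts, those called, both genes of a pair, the 10 of largest difference between a library and the other 2, and of each pathway list the 2 highest, those with no counts and those called. Further members below 1 TPM, Pde3b and Gm45837 were named after their values were seen.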

Additional observations from a re-analysis of the deposited data

How the results depend on the processing

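The count of members at 1 TPM, 64, ran from 60 (at 2 TPM) to 73 (at 1 CPM) under other thresholds and units, was 62 with 1 TPM required in every library, and was 64 to 66 without 1 library. The count of members varying between libraries was 0 in each setting run, including leaving out A, B or D. Over all genes, 24 varied, against 55 with the length trend removed and 4 by DESeq2 dispersion outliers, and 2 (without B) to 27 (without D), with 7 without A. As CPM the sign turned for 3 pairs: Gna13/Gna12 (log2 0.048), Prkaca/Prkacb (-1.03) and Prkaa1/Prkaa2 (-0.088), since CPM lacks the correction for length. Prkaca/Prkacb ran from -0.15 (without D) to 0.74 (without A), against 0.22. The other 16 pairs held the sign of their mean in every setting run, but with GENCODE M21 exon lengths, an alternative chosen after seeing the data, Pde1a/Pde1c no longer had 1 sign in every library. The leading gene changed as CPM to Gnao1, Prkag2, Adcy1, Gna13, Prkacb and Pde4b in their families, with M21 lengths to Pde4b and Prkag2, without A or D to Prkag2, and without B or D to Prkacb. No paired analysis was possible because the 3 libraries form 1 group, so there were no groups whose samples could be paired. Counting error limits genes of few counts, and 3 pools limit every comparison.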
